A study of Mus musculus with 3 samples.

Results

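The 10 genes described here, Hk2, Gpi1, Aldoa, Tpi1, Gapdh, Pgk1, Pgam1, Eno1, Pkm and Ldha, encode enzymes that carry glucose to pyruvate and lactate. They were chosen by name, cover every step but that of phosphofructokinase, and were all found among the 14721 genes of the deposited table. Their transcripts were counted in single cells sorted from mouse bone marrow as LSK, a gate on cells without lineage markers that carry Sca-1 and Kit, where stem cells and early progenitors are found. There were 3 droplet libraries, 1 for each genotype. The library called WT was labelled Spop(+/+) Myd88(+/+), KO was Spop(D/D) Myd88(+/+), and DKO was Spop(D/D) Myd88(-/-). Spop is the substrate adaptor of a cullin ubiquitin ligase, and Myd88 passes on signals from receptors for microbial products and interleukin-1. The labels give no treatment, age, sex, Cre driver or number of mice behind a library, nor do they say which part of Spop the D allele lacks.

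Glycolysis splits glucose into pyruvate in the cytosol and yields ATP without oxygen, and lactate dehydrogenase then regenerates the NAD that the pathway needs. Blood stem cells in the marrow are known for a low mitochondrial activity and a reliance on glycolysis. Neutrophils draw most of their energy from it, and red cells, which lose their mitochondria, depend on it wholly. Several of the genes are known targets of the hypoxia-inducible factors, which bind the core letters ACGTG or GCGTG, and of Myc, whose binding letters are CACGTG.

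Promoters of 3 members are printed because these genes stood at opposite ends of the comparison between libraries: Ldha and Pgam1 had the largest KO/WT ratios of the 10, and Pgk1, a much studied hypoxia-inducible gene, had the smallest. Each is 300 bases long (250 before the annotated start and 50 after it), from RefSeq on build GRCm38.p6, plus strand. They are Ldha at chr7:46845554-46845853 (the upstream window of its 2 annotated starts), Pgam1 at chr19:41911621-41911920 and Pgk1 at chrX:106186850-106187149. Capitals mark ACGTG and also GCGTG and CACGTG, read on either strand. On the other strand the former 2 read CACGT and CACGC. Every CACGTG also holds ACGTG on both strands.
Ldha: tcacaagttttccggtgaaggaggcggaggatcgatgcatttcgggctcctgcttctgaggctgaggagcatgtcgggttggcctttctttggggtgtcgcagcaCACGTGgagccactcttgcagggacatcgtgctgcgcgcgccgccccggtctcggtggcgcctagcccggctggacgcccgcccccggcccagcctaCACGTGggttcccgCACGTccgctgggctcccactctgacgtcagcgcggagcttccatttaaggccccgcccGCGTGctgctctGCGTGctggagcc
Pgam1: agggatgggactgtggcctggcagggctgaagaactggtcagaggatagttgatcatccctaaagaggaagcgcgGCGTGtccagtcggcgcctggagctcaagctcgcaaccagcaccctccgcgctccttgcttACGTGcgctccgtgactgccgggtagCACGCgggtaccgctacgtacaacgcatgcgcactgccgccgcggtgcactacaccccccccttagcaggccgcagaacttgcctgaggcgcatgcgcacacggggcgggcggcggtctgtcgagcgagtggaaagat
Pgk1: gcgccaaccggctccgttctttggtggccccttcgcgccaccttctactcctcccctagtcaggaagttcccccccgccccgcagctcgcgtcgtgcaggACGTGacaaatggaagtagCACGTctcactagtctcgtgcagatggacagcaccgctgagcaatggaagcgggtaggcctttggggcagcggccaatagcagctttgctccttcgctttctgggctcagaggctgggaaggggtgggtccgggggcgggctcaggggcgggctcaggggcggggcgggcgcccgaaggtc
The Ldha window held 2 CACGTG sites, 5 ACGTG matches over both strands and 2 GCGTG matches. Pgam1 held 1 ACGTG and 2 GCGTG matches, and Pgk1 held 2 ACGTG matches and no GCGTG. Taking the first window of each gene, ACGTG occurred in 5 of the 10 members (Hk2, Gapdh, Pgk1, Pgam1 and Ldha) and in 19.7% of 27025 promoters of the same length. At other annotated starts, which these counts leave out, ACGTG occurred for Pkm (2 matches in window 2) and Aldoa (1 each in windows 2 and 3). GCGTG occurred in 4 members (Gapdh, Pgam1, Eno1 and Ldha) and in 32.5% of all promoters, and CACGTG in 1 member (Ldha) and 7.24% of all. Either hypoxia core occurred in 6 of 10 members and 43.8% of promoters. A match is a description of letters, and no binding was measured.

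The table held 8147 WT, 4920 KO and 8184 DKO cells, with 85700749, 101393024 and 109920419 UMIs (unique molecular identifiers, 1 per captured transcript) and medians of 9245, 17319 and 12404.5 per cell. KO cells were thus the deepest. Levels are given in CPM, the UMIs of a gene in every 1000000 UMIs of the same cells, and since each transcript is counted once at its 3' end, genes are compared without dividing by length. Brackets after a level or ratio hold 95% exact intervals that cover counting error only. With 1 library per genotype there was no replicate and no test, so what sets a library apart from the others (animal, sort, depth) cannot be told apart from genotype. Between libraries 183 cell barcodes recurred, and leaving out those cells gave summed ratios of 1.53 for KO/WT, 0.834 for DKO/KO and 1.28 for DKO/WT, beside 1.53, 0.836 and 1.28 with them. Myd88 was at 13.7, 25.8 and 4.47 CPM in WT, KO and DKO, lowest in the library labelled Myd88(-/-) but not at 0. Spop was at 70.7, 63.1 and 77.1 CPM, which checks nothing, since a 3' tag may lie outside the deleted part. Kit, which defines the gate, was at 94.8, 41.5 and 65.9 CPM, and Ly6a, which encodes Sca-1, at 90.4, 85.1 and 89.5 CPM. Some markers of cells outside the gate were highest in KO. The 17 neutrophil progenitor markers summed to 4798, 14612 and 6334 CPM in WT, KO and DKO, and the 21 erythroid markers to 916, 2024 and 1146 CPM. No gene of either list was at 0 in any library. The 17 B lineage markers, also of cells outside the gate, were highest in WT, at 1089, 49.5 and 75.7 CPM. Immediate early genes, which respond to handling among other stimuli, summed to 3062, 679 and 1897 CPM. The part of these differences in the results was not tested, except where cells were left out or clusters compared. Xist, which marks female cells, was at 0.19, 0 and 1537 CPM in WT, KO and DKO, so sex is tied to the DKO library too.

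Summed over the 10 enzymes, the WT level was 3137 CPM (3126 to 3149), the KO level 4792 (4778 to 4805) and the DKO level 4006 (3994 to 4018). These were 0.314, 0.479 and 0.401% of all UMIs. KO was the highest and WT the lowest, and no intervals overlapped. When every cell was thinned to 3500 UMIs, which left out no cell, a cell held a mean of 10.4 ± 4.37 (SD over cells), 14.3 ± 7.31 and 13.5 ± 4.86 UMIs of the 10 genes in WT, KO and DKO. The medians were 10, 13 and 13 UMIs. At matched depth the typical KO cell thus held as many as the typical DKO cell, while the upper quartile was 13 in WT, 19 in KO and 16 in DKO.

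At the top of the pathway, Hk2, a hexokinase that traps glucose in the cell, was rare, at 27.4, 31.0 and 27.9 CPM in WT, KO and DKO. The isomerase Gpi1 was at 292, 331 and 422 CPM and was the only member besides Pkm with its highest level in DKO. Aldoa, the aldolase that cuts the 6-carbon sugar, was at 217, 358 and 289 CPM, and Tpi1, which interconverts the resulting triose phosphates, at 302, 400 and 379 CPM. Both were lowest in WT and highest in KO.

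Among the enzymes of the energy-yielding steps, Gapdh, which oxidises the triose phosphate, was the most abundant member in every library, at 1064, 1548 and 1226 CPM. Gapdh made up 33.9, 32.3 and 30.6% of the summed level. Pgk1, which makes the first ATP of the pathway and lies on chromosome X, was at 35.4, 30.3 and 31.6 CPM and was the only member with its highest level in WT. The mutase Pgam1 was at 251, 537 and 354 CPM and enolase Eno1 at 131, 203 and 164 CPM. Pkm, the pyruvate kinase of most tissues, was at 366, 459 and 502 CPM, and Ldha, which turns pyruvate into lactate, at 451, 894 and 609 CPM. Ldha was the second most abundant member in all 3 libraries. In the order of the 10 levels within a library, the intervals of neighbours overlapped only for Hk2 and Pgk1 in KO.

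**Figure D1:**
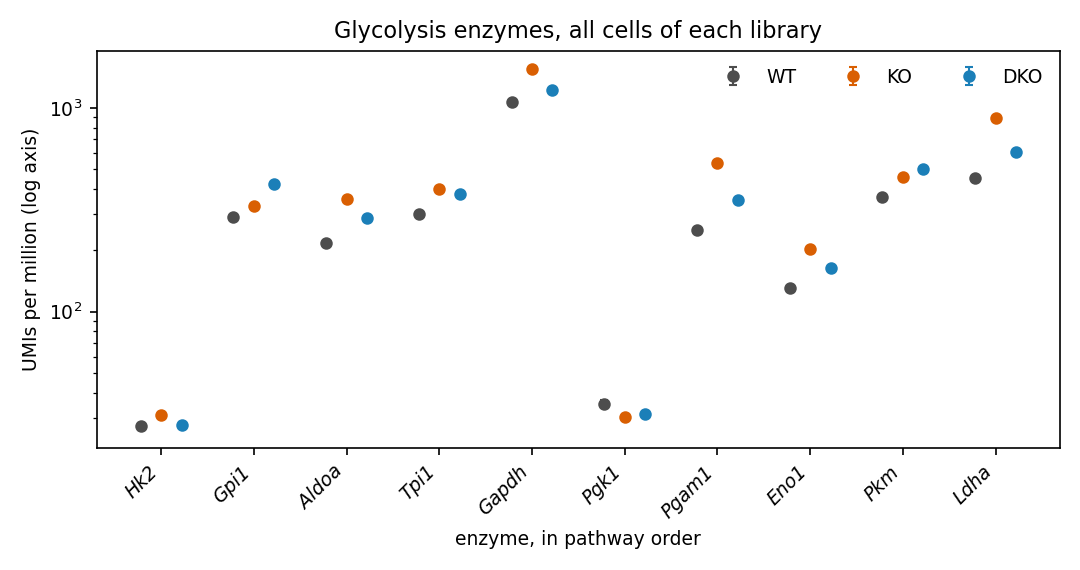
Level of each glycolysis enzyme (CPM, log axis) over all cells of the WT, KO and DKO libraries, in pathway order; bars are 95% counting intervals, mostly smaller than the points. KO is highest for Pgam1 (537) and Ldha (894), DKO for Gpi1 (422) and Pkm (502), and WT for Pgk1 (35.4).

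Set against WT, 4 of the 10 enzymes were at least 1.5-fold higher in KO and 0 were at least 1.5-fold lower, where 8.85% of the 5141 genes with a mean of at least 20 CPM were higher by that fold and 12.3% were lower. Pgam1 was 2.14-fold higher (2.11 to 2.17), Ldha 1.98-fold (1.96 to 2.01), Aldoa 1.65-fold (1.62 to 1.68) and Eno1 1.55-fold (1.52 to 1.59). Below that fold lay Gapdh at 1.45, Tpi1 at 1.32, Pkm at 1.253, Gpi1 at 1.13 and Hk2 at 1.13. Pgk1 alone lay on the other side, 1.17-fold lower (1.11 to 1.23). The median log2 ratio of the 10 was 0.47, beside 0.02 over all genes, and their sum was 1.53-fold higher (1.52 to 1.53). Under TMM factors or median-of-ratios size factors the median of all genes itself was up to 0.18, and the summed ratio was 1.70 and 1.72. The enzymes therefore differed unequally: Pgam1 was 8.0% of the summed level in WT and 11.2% in KO, and Ldha 14.4 and 18.7%, while Pkm was 11.7 and 9.58%.

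Between DKO and KO, which share the Spop genotype, 0 enzymes were at least 1.5-fold higher in DKO and 1 was lower, with 13.4 and 6.02% of 5163 genes beyond that fold. Pgam1 was 1.52-fold lower in DKO (1.5 to 1.54), Ldha 1.47-fold (1.45 to 1.48), Gapdh 1.26-fold, and Aldoa and Eno1 1.24-fold each. The direction held for none of these under every setting: with the cluster mix standardised to WT all 5 were higher in DKO, by 1.19-fold, 1.06-fold, 1.10-fold, 1.37-fold and 1.41-fold in that order. That setting covers only 21.9% of DKO and 38.9% of KO cells. Aldoa was also higher in DKO with equal cell weights, thinned cells, and without out-of-gate classes or the neutrophil progenitor-like class, Eno1 under the latter 2, and Pgam1 under the last. Tpi1 (1.06-fold lower) was higher in DKO in 5 of 12 settings and Hk2 (1.11-fold lower) in 2. Gpi1 was 1.27-fold higher (1.26 to 1.29). Pkm was 1.09-fold higher and Pgk1 1.04-fold higher, and both lay below 1 under TMM factors and median-of-ratios size factors. The summed ratio was 0.836 (0.833 to 0.839) and the median log2 ratio -0.23, beside 0.08 over all genes.

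Against WT, the DKO library had 0 enzymes beyond 1.5-fold in either direction, where 2.43% of 5307 genes were higher and 1.87% lower by that fold. Yet 8 of the 10 ratios lay between 1.15 and 1.44 and had intervals above 1. The largest were Gpi1 at 1.44 (1.42 to 1.46), Pgam1 at 1.41, Pkm at 1.37, Ldha at 1.35 and Aldoa at 1.33. Hk2 was at 1.02 (0.963 to 1.07), and below 1 in 8 of 12 settings, among them TMM factors and median-of-ratios size factors, while Pgk1 was 1.12-fold lower (1.07 to 1.18). The sum was 1.28-fold higher (1.27 to 1.28), with a median log2 ratio of 0.37 beside 0.09 over all genes. The 3 comparisons share libraries 2 by 2, so their ratios are not independent of each other.

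**Figure D2:**
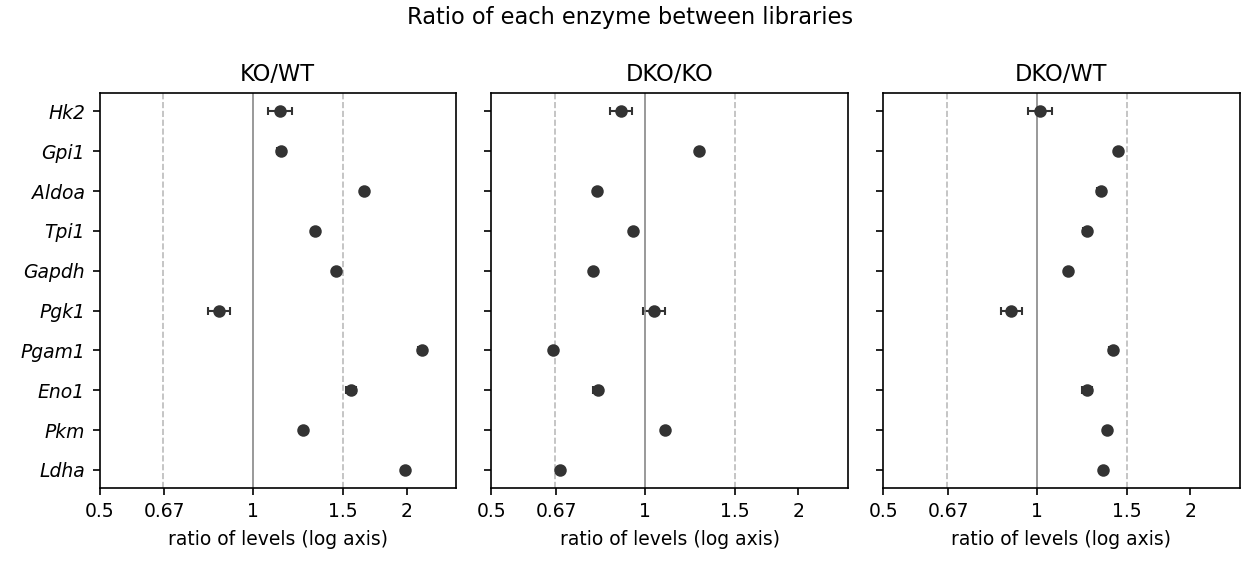
Ratio of each enzyme's level between 2 libraries (log axis) for KO/WT, DKO/KO and DKO/WT, with 95% counting intervals. KO/WT runs from 0.857 for Pgk1 to 2.14 for Pgam1, DKO/KO from 0.660 for Pgam1 to 1.27 for Gpi1, and DKO/WT from 0.892 for Pgk1 to 1.44 for Gpi1.

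Other genes of glucose use were read from lists that, like the members, were drawn up with earlier results of these data known, and genes are counted where the pair's mean was at least 20 CPM. A gene below 20 CPM in either library of a pair passes only through the library where it is higher. For KO and WT this held for Pfkp, Slc16a1, Ero1l and G6pdx (higher in KO) and for Ldhb and Mycn (higher in WT). Their calls follow in part from that filter. Among other isoenzymes of the pathway, 1 of 4 was higher in KO than in WT and 1 lower, to be read beside the 8.85% of all genes higher and 12.3% lower. Pfkp, a phosphofructokinase, was at 12.3, 31.7 and 21.9 CPM in WT, KO and DKO, 2.58-fold higher in KO. Ldhb, the lactate dehydrogenase subunit of oxidative tissues, was at 49.5, 16.7 and 42.1 CPM, 2.96-fold lower in KO. Ldha and Ldhb thus lay on opposite sides of WT in this library. Of the transporters, Slc16a1, which exports lactate, was at 19.7, 40.7 and 20.8 CPM (2.06-fold higher in KO) and its partner Bsg at 216, 293 and 270 CPM. Of 7 regulators 2 were lower in KO and 0 higher: Txnip, which restrains glucose uptake, was at 168, 43.1 and 174 CPM, and Mycn at 31.1, 11.4 and 26.6 CPM.

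Of 7 hypoxia targets outside glycolysis, 3 were at least 1.5-fold higher in KO than in WT (Ero1l, Plin2 and Mif) and 1 was lower (Ndrg1), with the same 8.85 and 12.3% over all genes here and for the next lists. Ero1l, an oxidase of the endoplasmic reticulum, was at 11, 35.7 and 11.5 CPM, and the cytokine Mif at 865, 1385 and 882 CPM. Ndrg1, a hypoxia-induced stress gene, was at 60.1, 32.7 and 97.9 CPM. In the pentose phosphate pathway, which branches off after hexokinase and makes NADPH, 3 of 7 were higher in KO (Pgd, G6pdx and Rpia) and 0 lower; Pgd was at 42.5, 84.0 and 50.5 CPM. Of the 17 genes of pyruvate entry and the citrate cycle 3 were higher and 0 lower, among them the pyruvate carrier subunit Mpc1 at 1.66-fold. Of 36 nuclear genes of the respiratory chain 10 were higher and 0 lower, and their sum was 1.36-fold higher, beside 1.53-fold for the 10 glycolysis enzymes. Between DKO and WT the respiratory chain sum differed by 1.06-fold (1.06 to 1.07), where that of the glycolysis enzymes differed by 1.28-fold. Between DKO and KO, 7 of the 36 chain genes were lower in DKO and 0 higher (6.02 and 13.4% of all genes), with a summed ratio of 0.780.

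To compare like cells, the 21251 cells were clustered without the glycolysis lists, and clusters were named from markers only where enough of 1 list led them. In KO, 1176 cells (23.9%, 22.7 to 25.1%) formed a neutrophil progenitor-like cluster led by Elane, Ly6c2 and Ms4a3. Another 1052 (21.4%) were erythroid progenitor-like, of which 996 lay in a cluster led by Hbb-bs, Hba-a1 and Tspo2. The largest group, 1858 cells led by Ifitm1 and Vldlr, kept no name. WT had 33 neutrophil progenitor-like cells (0.405%), too few to compare, and DKO had 59 (0.721%). B lineage-like cells numbered 682 in WT (8.37%), 4 in KO and 12 in DKO. Such committed cells lie outside the definition of LSK. The neutrophil progenitor-like class was not uniform. Its top 10 genes held 3 of its own list and 3 of the mature neutrophil list, and Ly6c2 is on the monocyte-dendritic list. In a finer clustering (resolution 1.5), 696 KO cells were neutrophil progenitor-like and 258 mature neutrophil-like. Another 532 KO cells, led by F13a1 and Ly6c2, then kept no name.

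Across all clusters of at least 50 cells, the summed level of the 10 enzymes was highest in the neutrophil progenitor-like cells, at 6648 CPM (6623 to 6673) for those of KO and 6041 (5919 to 6166) for those of DKO. The sum was 4235 CPM in the Ifitm1 and Vldlr cluster and 2433 in the erythroid progenitor-like cells of KO. These cells held 39.4% of the KO library's UMIs and 54.6% of its UMIs of the 10 enzymes, and the erythroid cells 8.37% of the latter. At 3500 UMIs a cell, the means in KO were 22.5 ± 6.66 (SD over cells) in neutrophil progenitor-like cells, 13.8 ± 5.38 in the Ifitm1 and Vldlr cluster and 8.23 ± 3.64 in erythroid cells. The order was thus the same at equal depth. Before thinning, the neutrophil class was the deepest, with a median of 35272.5 UMIs per cell. Without both classes the KO sum was 4016 CPM. Among the WT clusters the sum was highest, at 4485 CPM, in the 105 WT cells of a cluster whose leading genes over all libraries were Xist, Cpa3 and Ung, Xist coming from its 1646 DKO cells, followed by a cluster led by Shisa8, Ung and E2f1 at 3668 and the B lineage-like cells at 3653. It was 2870 CPM in WT stem cell-like cells and 2571 in WT lymphoid-primed-like cells, near the low end.

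**Figure D3:**
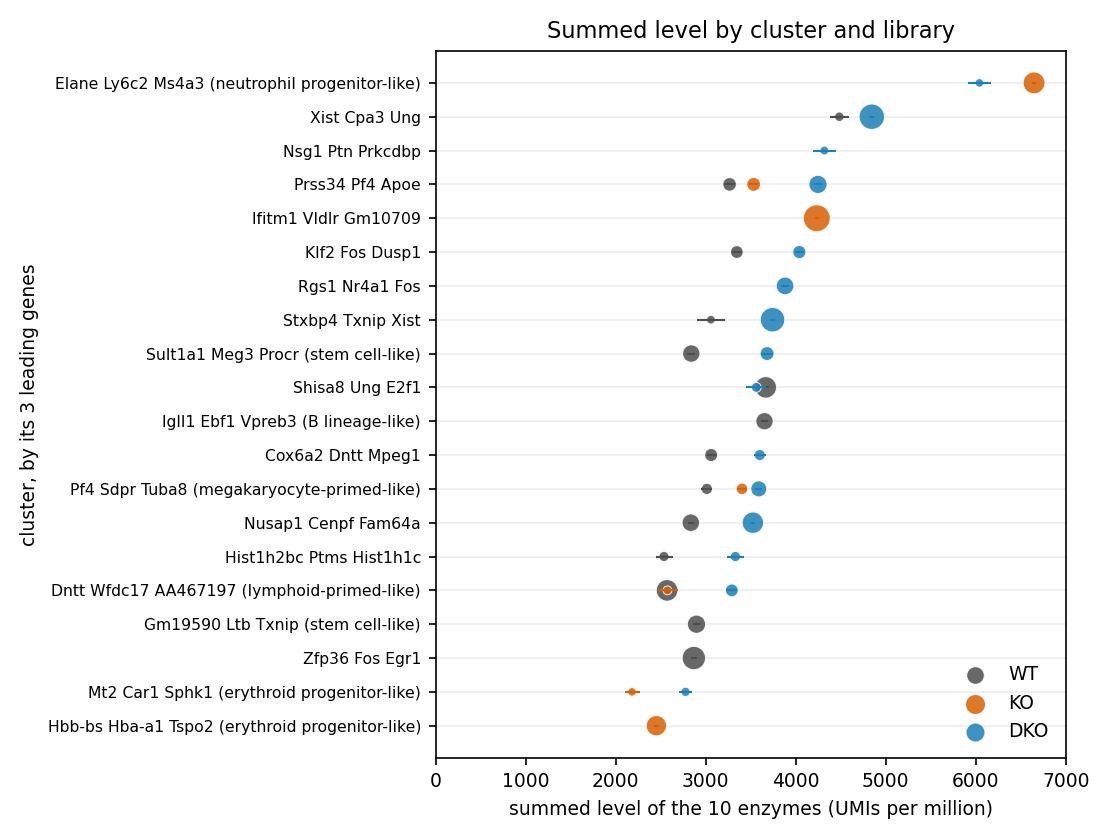
Summed level of the 10 enzymes (CPM, linear axis) in each cluster of at least 50 cells of a library, with the clusters named by their 3 leading genes; point area grows with the number of cells and bars are 95% counting intervals. The Elane cluster stands at 6648 in KO and 6041 in DKO, and the remaining clusters lie between 2182 and 4845.

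Within KO the members did not differ evenly between these cells. Pkm was at 672 CPM in neutrophil progenitor-like cells, 459 in the Ifitm1 and Vldlr cluster and 60.0 in erythroid progenitor-like cells, and Pgam1 at 879, 452 and 95.4 CPM. Hk2 was at 40.3, 34.4 and 6.58 CPM. These 3 enzymes were thus 11.2-fold (10.5 to 11.9), 9.21-fold and 6.12-fold higher in neutrophil progenitor-like than in erythroid cells. Eno1 was at 317, 150 and 87.8 CPM and Pgk1 at 41.2, 27.9 and 14.2 CPM. Gapdh, at 2043, 1419 and 928 CPM, and Ldha, at 1182, 743 and 595 CPM, differed by 2.20-fold and 1.99-fold between the same 2 classes. Aldoa was at 526, 267 and 227 CPM, Tpi1 at 523, 371 and 233 CPM and Gpi1 at 424, 312 and 187 CPM.

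With a mean of at least 50 CPM required, 8 of 8 members were at least 1.5-fold higher in neutrophil progenitor-like than in erythroid cells of KO, where 18.3% of 2523 genes were. The sum differed by 2.73-fold (2.70 to 2.76), whereas the respiratory chain sum differed by 1.17-fold. Against the Ifitm1 and Vldlr cluster, 4 of 8 (Aldoa, Pgam1, Eno1 and Ldha) were higher in neutrophil progenitor-like cells, beside 10.7% of genes, and 6 of 8 were lower in erythroid cells, beside 8.37%. In WT, B lineage-like cells had 3 of 8 members higher than lymphoid-primed-like cells (Gapdh, Eno1 and Ldha, beside 23.8% of genes) and 1 lower (Aldoa, beside 12.3%). Ldha was at 713 CPM in the former and 290 in the latter, and Aldoa at 138 and 253. The clusters were made from other genes of the same cells, so these contrasts describe the classes and were not tested.

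**Figure D4:**
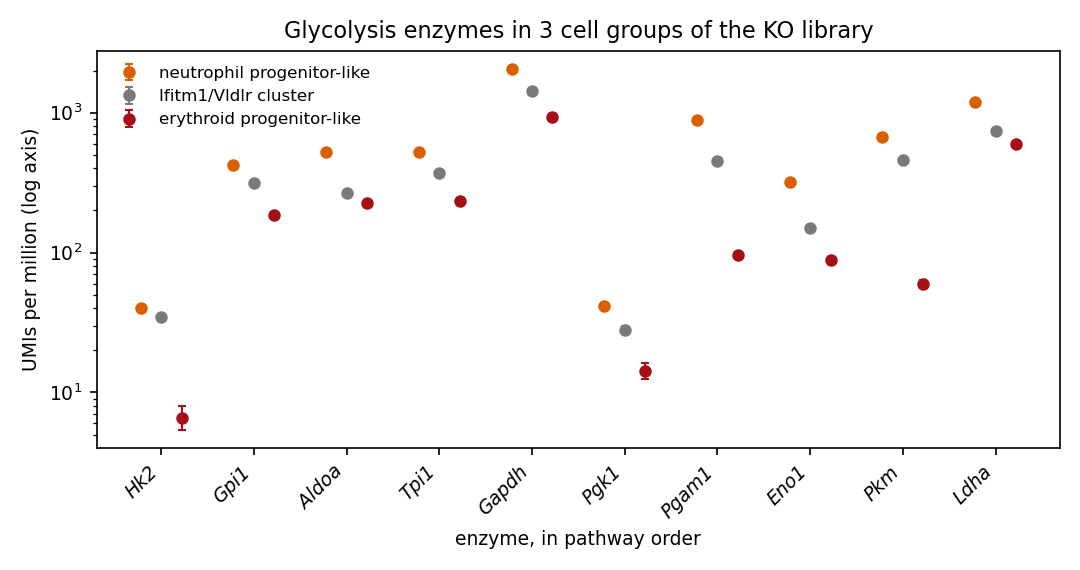
Level of each enzyme (CPM, log axis) in 3 cell groups of the KO library, with 95% counting intervals. Neutrophil progenitor-like cells are highest for all 10, and the gap to erythroid progenitor-like cells is widest for Pkm (672 against 60.0) and Pgam1 (879 against 95.4).

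At several of these steps another isoenzyme was higher in erythroid cells. Pklr, the pyruvate kinase of liver and red cells, was at 15.5 CPM (259 UMIs) in KO and 26.9 CPM (54 UMIs) in DKO erythroid progenitor-like cells, against 0 to 2 UMIs in each cluster outside that class. Its level stayed below the 60.0 CPM of Pkm in the same KO cells. Hk1, a widely expressed hexokinase, was at 142 CPM in KO erythroid cells and 37.4 in KO neutrophil progenitor-like cells (3.8-fold, 3.56 to 4.06), opposite in direction to Hk2. Hk3, a hexokinase of myeloid cells that is also on the neutrophil marker list, was at 39.1 CPM in the neutrophil progenitor-like cells and 1.2 in the erythroid cells of KO. Bpgm, which makes the 2,3-bisphosphoglycerate of red cells, was at 29.8 and 11.8 CPM in KO erythroid and neutrophil progenitor-like cells, and Pfkm at 17.2 and 3.66. In WT stem cell-like cells Bpgm was at 26.8 CPM and Pfkm at 12.7, so neither was particular to erythroid cells. The phosphofructokinases Pfkl and Pfkp went the other way, at 20.6 and 12.9 CPM in KO erythroid cells. In KO neutrophil progenitor-like cells they were at 50.7 and 52.6.

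Ldhb was highest in stem cell-like cells, at 86.5 CPM in WT and 120 in DKO, and lowest in KO erythroid cells at 1.5, with 8.60 in WT B lineage-like cells and 13.2 in KO neutrophil progenitor-like cells. Its order among classes differed from that of Ldha, which was at 346 CPM in WT stem cell-like cells and 1182 in KO neutrophil progenitor-like cells. Among the named classes Txnip was likewise highest in stem cell-like cells, at 377 CPM in WT and 532 in DKO. Txnip is also on the stem cell marker list, so its level there is partly fixed by the naming. It was lowest in KO neutrophil progenitor-like cells at 17.0, with 64.1 in KO erythroid cells. A cluster without a name, with 1515 DKO cells, was led by Stxbp4, Txnip and Xist. Slc16a1, the lactate exporter, was at 58.9 CPM in KO neutrophil progenitor-like cells, 58.4 in WT B lineage-like cells and 11.1 in WT stem cell-like cells.

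When KO and WT were compared within the same cluster, the summed ratio was closer to 1 than over whole libraries. Only 3 clusters had at least 50 cells in both KO and WT, and they hold 13.9% of KO and 21.0% of WT cells. The summed KO/WT ratio was 1.0 in the lymphoid-primed-like cluster (0.958 to 1.05, 72 KO cells), 1.13 in the megakaryocyte-primed-like cluster (1.10 to 1.16) and 1.08 in the cluster led by Prss34, Pf4 and Apoe (1.06 to 1.11), beside 1.53 for whole libraries. Of the 30 ratios of a member in a cluster, 16 lay above 1. Ldha lay above 1 in all 3 clusters, at 1.23, 1.53 and 1.19, each with its interval above 1. Pgk1, Tpi1 and Pkm lay below 1 in all 3. Pgam1 was at 1.04, 1.33 and 1.36, and Eno1, which was 1.55-fold higher over the whole library, at 0.841, 1.02 and 0.956. In the lymphoid-primed-like cluster 0 of 8 members were beyond 1.5-fold in either direction (background 2.02% higher and 5.43% lower). In the megakaryocyte-primed-like cluster 2 of 8 were higher, Aldoa at 1.71 and Ldha at 1.53 (background 1.88%), and 0 were lower (2.53%).

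Without the neutrophil progenitor-like class, a check added after the data were seen, the KO/WT sum was 1.15 and 1 member (Ldha) was at least 1.5-fold higher, with Pgk1 as 1 member lower. With every cluster given its WT share, over the 3 shared clusters, the sum was 1.04 and Aldoa, Tpi1, Pgk1, Eno1 and Pkm lay below 1.

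The DKO/WT difference was seen within clusters as well. In the 11 clusters with at least 50 cells of both, which hold 87.0% of DKO and 63.6% of WT cells, the summed ratio ran from 0.971 to 1.31 with a median of 1.22, and 10 intervals lay above 1 and 0 below. The respiratory chain sum ran from 0.960 to 1.09 in the same clusters, with a median of 1.04. Gpi1 lay above 1 in 11 of 11 clusters, with its interval above 1 in 10 and a median of 1.38, and Aldoa in 11 with a median of 1.29. Pkm and Ldha lay above 1 in 10 clusters each, with intervals above 1 in all of those, and Pgam1 in 10. Pgk1 lay above 1 in 1 cluster, with 4 intervals below 1, and Hk2 in 6, with 1 interval above and 2 below. In stem cell-like cells the sum was 2870 CPM in WT and 3641 in DKO, 1.27-fold higher (1.24 to 1.29), with 1 of 8 members beyond 1.5-fold, Pkm at 1.51 (background 3.19% higher and 1.23% lower). Of these WT cells 774 of 1466 came from a cluster led by Gm19590, Ltb and Txnip, while 391 of 426 DKO cells came from one led by Sult1a1, Meg3 and Procr. In the latter alone the sum was 2840 CPM in WT and 3682 in DKO, a ratio of 1.30. In lymphoid-primed-like cells the sum was 2571 in WT and 3291 in DKO, 1.28-fold higher, with 0 of 8 members beyond 1.5-fold (background 2.21% higher and 1.57% lower). Whether the DKO library's sex, depth or genotype goes with this difference cannot be told apart.

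**Figure D5:**
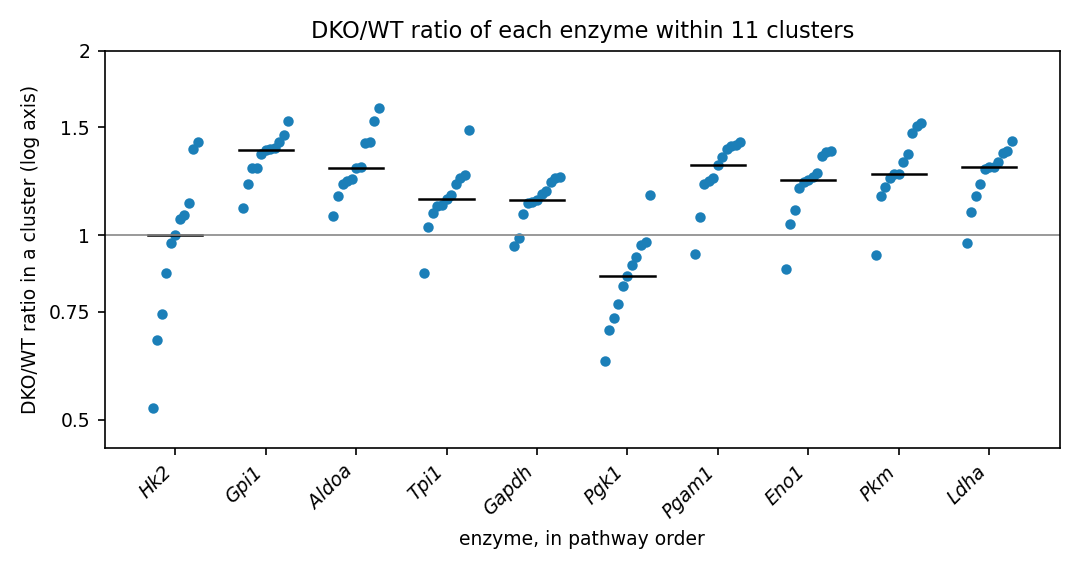
DKO/WT ratio of each enzyme (log axis) in each of the 11 clusters with at least 50 cells of both libraries; every point is 1 cluster. Gpi1 and Aldoa lie above 1 in all 11, Pgk1 in 1 of 11 and Hk2 in 6.

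DKO and KO could be compared in 5 clusters, where the summed DKO/KO ratio ran from 0.909 to 1.28 with a median of 1.2, so that in 4 of 5 the level was higher in DKO although it was lower over the whole library. The exception was the neutrophil progenitor-like cluster, at 0.909 (0.890 to 0.928), with 59 DKO and 1176 KO cells. There Ldha was at 694 CPM in DKO and 1182 in KO, 1.70-fold lower (1.60 to 1.81), and Gpi1 at 762 and 424 CPM, 1.80-fold higher in DKO. These were the only 2 of 8 members beyond 1.5-fold in that cluster, where 7.3% of 2480 genes were higher and 8.31% lower. The erythroid classes of KO and DKO come mostly from different clusters (996 of 1052 KO cells from the one led by Hbb-bs, and 91 of 93 DKO cells from the one led by Mt2, Car1 and Sphk1). Their summed levels were 2433 CPM in KO and 2737 in DKO.

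Cycling cells, those in which S or G2 and M genes took over 1% of the thinned UMIs, made up 12, 15.4 and 18.4% of the cells of WT, KO and DKO. Their summed level of the 10 enzymes was lower than that of the remaining cells in each library: 2786 against 3206 CPM in WT, 3476 against 5026 in KO and 3383 against 4195 in DKO. In KO the gap was narrower within each class: 6217 against 6676 CPM in neutrophil progenitor-like cells, of which 5.7% were cycling, 2255 against 2526 in erythroid cells, of which 30.7% were, and 3743 against 4307 in the Ifitm1 and Vldlr cluster. Over whole libraries the gap was widest in WT and DKO for Aldoa, at 94.8 against 241 CPM in WT, and in KO for Pgam1. Gapdh was at 1069 against 1063 CPM in WT. Leaving out cycling cells gave a KO/WT sum of 1.57. Depth moved with the members too: from the lowest to the highest UMI tertile of cells, the summed WT level went from 2525 to 3487 CPM, the KO level from 2952 to 5984 and the DKO level from 3416 to 4238. Within KO it went from 5530 to 7334 CPM in neutrophil progenitor-like cells, from 3262 to 4881 in the Ifitm1 and Vldlr cluster and from 2177 to 2586 in erythroid cells. Aldoa went the other way in WT (257 to 175 CPM) and DKO (357 to 252), as did Hk2 in DKO (30.5 to 26.7). The part of depth in the differences between libraries was not tested beyond the thinned values above.

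Over the 36 sums of a cluster in a library, Eno1 followed the other 9 members most closely, with a Pearson r of 0.900 on log2 levels, followed by Gapdh at 0.833 and Pgam1 at 0.810. Ldha at 0.440 and Aldoa at 0.376 followed them least. The widest range was that of Pkm, 28.8-fold, from 26.9 CPM in KO cells of the Mt2, Car1 and Sphk1 cluster to 777 in DKO neutrophil progenitor-like cells, and the narrowest that of Gapdh, 2.48-fold. Outside the list, the 8 genes whose level was most like the sum of the 10, among 5122 genes, were Pdia6 (r = 0.905), Pdia3, Gusb, Parl, Calr, Ddost, Tmed9 and Prmt1 (r = 0.805). Pdia6, Pdia3, Calr and Ddost encode proteins that fold or glycosylate new proteins in the endoplasmic reticulum, and Calr is also on the neutrophil progenitor list. Without the KO sums, over 29 points, r was 0.843 for Pdia6 and 0.775 for Calr. The points share libraries and depth, so these values are descriptions.

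Reads of 2 members can come from near-identical copies. Of the 90-base windows in the last 500 bases of the transcript, 79.8% of those of Gapdh also occur in other genes (65 in number, 63 of them pseudogenes) and 54.0% of those of Eno1 occur in Eno1b or a pseudogene. Eno1b itself was at 3.97, 4.25 and 3.33 CPM in WT, KO and DKO. How such reads were counted is not given in the sources used here, so the levels of Gapdh and Eno1 carry that uncertainty in every library. Tpi1 shared 5.35% of its windows and the other 7 members none. Aldoa has 2 gene entries in the annotation, at chr7:126795234-126800751 and chr7:126800790-126809108 on GRCm38, and the table holds 1 row under that name.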

How the data were processed

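Cells were counted from droplet 3' v2 libraries, 1 per genotype. The deposited table of counts holds whole-number UMI counts per gene and cell. The deposited normalized table holds natural log values, and 69176581 of its nonzero entries equal ln(1 + 10000 × count / cell total) within 0.001, so only the counts were used. The submitters' processing notes name Cell Ranger, bcl2fastq, Seurat and mm10. Their roles, versions and cell filters are not given in the sources used here.

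Counts were summed over cells and divided by the summed total, with exact Poisson intervals for levels and exact conditional binomial ones for ratios. All cells were clustered together on 2000 variable genes, without glycolysis, sex-linked, mitochondrial, ribosomal and cell cycle genes, with 30 components, 20 neighbours and Leiden resolution 1 (Python 3.11.15, scanpy 1.11.5). A cluster was named where at least 4 markers of 1 list, and 2 more than of any other, were among its top 15 genes. Its top 10 genes also had to hold at least as many markers of that list as of any other. This rule was set after the clusters were seen. The cluster led by Prss34, Pf4 and Apoe kept no name through its top 10, with 3 megakaryocyte and 4 basophil-mast markers. Scrublet scored doublets without calling any, and all cells were kept. Scaling alternatives used TMM factors (edgeR 4.0.16 in R 4.3.3) and median-of-ratios size factors. Other alternatives weighted cells equally, thinned them, left out doublet-like, outlying, cycling or out-of-gate cells, standardised the cluster mix or changed thresholds and clustering. Out-of-gate classes were those named erythroid, neutrophil progenitor, mature neutrophil, B lineage or T, NK or innate lymphoid-like. They held 740 WT, 2232 KO and 164 DKO cells. The scripts were tested on simulated counts with known changes. The members and lists were chosen with earlier results of these data known. All 10 members were measured in each comparison, but only some of them were named in several comparisons. From each other list up to 4 genes with the largest KO/WT ratios were named. Other genes were named after their values were seen. The labels name no separate animals, so there were no replicates to compare.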

Additional observations from a re-analysis of the deposited data

Results flagged for a closer look

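Aldoa differed in opposite directions between KO and WT in 2 clusters. Its KO/WT ratio was 1.71 in the megakaryocyte-primed-like cluster led by Pf4, Sdpr and Tuba8 (201 against 118 CPM) and 0.737 in the lymphoid-primed-like cluster led by Dntt (187 against 253 CPM, with 72 KO cells). The difference between the clusters was not tested, since each genotype has 1 library.

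Ldha did so between DKO and KO. The ratio was 1.49 in the erythroid progenitor-like cluster led by Mt2, Car1 and Sphk1 (765 against 514 CPM, with 91 DKO and 56 KO cells) and 0.587 in the neutrophil progenitor-like cluster led by Elane (694 against 1182 CPM, with 59 DKO cells). This difference was not tested either.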

How the results depend on the processing

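The KO/WT sum of 1.53 was 1.70 with TMM factors, 1.72 with median-of-ratios size factors, 1.46 with totals lacking the 50 most abundant genes and the members, 1.37 with equal cell weights, 1.37 thinned to 3500 UMIs, 1.54 without the outer 5% of cells by mitochondrial share or UMIs, 1.31 without classes outside the gate, 1.57 without cycling cells and 1.04 with the cluster mix standardised to WT. Without the neutrophil progenitor-like class, added after the data were seen, it was 1.15. In the same order DKO/KO, at 0.836, was 0.731, 0.727, 0.847, 0.95, 0.944, 0.831 and 0.996, with 1.21 when standardised and 1.11 without that class. DKO/WT, at 1.28, was 1.24, 1.248, 1.24, 1.30 and 1.30 under the first 5, then 1.31 without classes outside the gate, 1.31 without cycling cells and 1.18 when standardised. Of the 4 members higher in KO than WT, the count was 2 with equal weights, when thinned and without out-of-gate classes, 1 without the neutrophil class (with 1 lower) and 0 when standardised (with 1 lower). The lower of the 2 other fold thresholds tried gave 7 and the higher, 2-fold, gave 1. For DKO/KO the 1 lower member became 2 with either size factor, 3 at the lower threshold and 0 at the higher, without the 50 genes, with equal weights, when thinned, without out-of-gate classes and without the neutrophil class. Its 0 higher became 2 without the neutrophil class and when standardised, and 1 at the lower threshold. For DKO/WT, 7 were higher at the lower threshold. Among members beyond 1.5-fold, ratios on the other side of 1 were Eno1 KO/WT (0.996 without the neutrophil class and 0.897 standardised), Aldoa KO/WT (0.872 standardised) and Pgam1 DKO/KO (1.10 and 1.19 under the same 2 settings). Among the rest, over 12 settings, they were Hk2, Gpi1 and Tpi1 (1 setting each) and Pkm (2) for KO/WT, Aldoa and Tpi1 (5 each), Eno1 (3), Hk2, Pgk1 and Pkm (2 each), Gapdh and Ldha (1 each) for DKO/KO, and Hk2 (8) for DKO/WT. Those were at most 1.41 for DKO/KO (Eno1) and at least 0.843 for KO/WT (Pkm). By class, neutrophil over erythroid in KO (2.73) was 2.65 at resolution 0.6, 2.24 at 1.5, 2.65 with cycle genes in the clustering, 2.79 without the highest doublet scores and 2.64 without cycling cells. At 1.5 the neutrophil progenitor name covered 696 KO cells, beside 1176 in the main clustering. KO/WT in megakaryocyte-primed-like cells (1.13) was 1.09 with cycle genes and 1.07 without cycling cells, and DKO/WT there (1.19) was 1.254 at 1.5 and 1.30 with cycle genes. DKO/WT in stem cell-like cells (1.27) was 1.32 at 0.6, 1.30 at 1.5 and 1.31 with cycle genes. The standardised mix rests on 3 shared clusters for KO/WT, 5 for DKO/KO and 11 for DKO/WT. Clusters are weighted by their WT cells. For KO/WT and DKO/KO the lymphoid-primed-like cluster therefore counts most, with 1140 WT but 72 KO cells. The neutrophil progenitor-like cluster, used only for DKO/KO, has 33 WT cells and counts little. The cause was not tested in any of these settings. The lymphoid-primed-like class gave no value at 1.5 or with cycle genes, nor the megakaryocyte-primed-like class at 0.6, since no cluster then took the name. No paired analysis was possible because each genotype has 1 library, and intervals cover counting error only. Leaving out doublet-like cells or shared barcodes kept each ratio of library sums within its counting interval.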

Other observations

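Other isoenzymes of the pathway were also compared between DKO and WT. Between DKO and WT, 3 of 5 isoenzymes with a mean of at least 20 CPM were at least 1.5-fold higher and 0 lower, where 0 of the 10 enzymes and 2.43% of all genes were higher. Hk1 was at 43.9, 63.7 and 71.9 CPM in WT, KO and DKO, a DKO/WT ratio of 1.64 (1.58 to 1.70). Pfkl, a phosphofructokinase of liver and blood cells, was at 45.1, 43.4 and 67.8 CPM, only just past that fold in DKO against WT. Hk3, which is also on the neutrophil progenitor list, was at 15.2, 22.0 and 27.1 CPM. Being below 20 CPM in WT, Hk3 was counted only through its DKO level, so its call follows in part from the filter. Of the other 2, Ldhb was 1.18-fold lower in DKO than in WT and Bpgm 1.29-fold higher. Among the 10 enzymes, Gpi1 at 1.44 and Pgam1 at 1.41 came nearest the fold, while Pgk1 was at 0.892. The contrast in counts therefore rests in part on the threshold. Pfkl catalyses the committed step, which none of the 10 enzymes covers.

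On the reverse pathway, Fbp1, the fructose bisphosphatase that undoes the phosphofructokinase step, was at 14.1, 4.35 and 25.3 CPM in WT, KO and DKO. It was picked here after its values were seen. Pck2, the mitochondrial enzyme that makes phosphoenolpyruvate, was at 56.4, 48.8 and 70.9 CPM. Both were highest in DKO and lowest in KO. G6pc3 and Pcx, of the same list, were highest in DKO too but lowest in WT. G6pc3 was at 53.2, 62.5 and 94.0 CPM and Pcx, which was rare, at 0.56, 0.809 and 1.06 CPM in WT, KO and DKO. With 1 library each the differences have no replicate check.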
